A study of Homo sapiens with 6 samples.

Results

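Replication licensing is the loading of the MCM helicase onto origins of replication before S phase, and it was examined here through 10 genes: MCM2, MCM3, MCM4, MCM5, MCM6 and MCM7 for the helicase, CDC6 and CDT1 for its loading, GMNN for its inhibitor geminin, and PCNA for the replication clamp. The spots were those that the platform annotation, brought to current symbols by gene ID, gives to these genes. They came to 15 spots for 7 genes among 9169 spots tested for 6255 genes: 6 spots for MCM2, 2 each for MCM5, MCM7 and GMNN, and 1 each for MCM3, CDT1 and PCNA. MCM4, MCM6 and CDC6 carried no named spot and are not analysed here. The genes were chosen by their role and by measured values, namely the lower DN-TRF2 means of MCM7 and GMNN in the comparison used here, so the differences below describe these arrays and are no test of the set.

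RNA abundance was measured in SH-SY5Y, an established human neuroblastoma line with features of immature sympathetic neurons, on 6 arrays. The 3 DN-TRF2 samples carried the vector pIRES2-EGFP with an insert for a dominant-negative form of TRF2, a telomere-binding protein of the shelterin complex. The 3 GFP control samples carried the vector pEGF-C2 with no insert. All 6 were selected in geneticin at 500 µg/ml and collected on day 7 after transfection, and the labels name 3 independent experiments. Per sample about 5 µg of RNA was labelled with 33P and hybridized in 1 channel to an array of 9600 cDNA spots. The vectors differ between the groups in backbone as well as insert, so insert and backbone cannot be told apart. The promoter that drives each insert is not stated in the labels. The study design also names cells with wild-type TRF2, and daily cell counts that tested for slower proliferation, neither of which was analysed here.

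In dividing cells the origin recognition complex, CDC6 and CDT1 place a pair of MCM2-7 rings on each origin in late mitosis and G1. Once S phase begins, CDT1 is destroyed through ubiquitin ligases, one route needing PCNA on DNA, and geminin binds what is left of it, so that an origin fires once per cycle. Transcription of many of these genes is driven by E2F factors in proliferating cells and declines as cells leave the cycle, which makes them common markers of proliferation.

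Because E2F factors are the best-known regulators of these genes, their promoters were searched for E2F-type letters, and stretches are shown for the 3 genes with a match wholly within the 100 bases before the outermost start. The letters TTTCGCGC, TTTGGCGC, TTTCCCGC and TTTGCCGC were searched on both strands of the RefSeq promoter windows (GRCh38.p14), which run from 250 bases before to 50 after each start. Of the 7 genes with a spot, 6 had a promoter window with a match and MCM5 had no entry. A match stood in 6 of their 10 windows, against 3.31% of 35116 windows of the same length. Because the genes were searched as ones already known for E2F regulation, this contrast is no test of enrichment. In MCM2 the matches were 2 overlapping ones on opposite strands, just after the start. The MCM7 stretch is chr7:100101398-100101497 on the minus strand, the CDT1 stretch is chr16:88803689-88803788 on the plus strand and the PCNA stretch is chr20:5126623-5126722 on the minus strand. Each is the 100 bases before the start, written 5′ to 3′ with the matched letters in capitals, and the match begins at base -9 in MCM7, -35 in CDT1 and -59 in PCNA. A match is a description of these letters and not evidence of binding.
MCM7: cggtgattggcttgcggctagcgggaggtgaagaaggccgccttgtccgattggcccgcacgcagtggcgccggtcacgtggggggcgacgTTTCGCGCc
CDT1: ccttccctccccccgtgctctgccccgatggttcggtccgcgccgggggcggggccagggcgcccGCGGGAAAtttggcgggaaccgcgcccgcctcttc
PCNA: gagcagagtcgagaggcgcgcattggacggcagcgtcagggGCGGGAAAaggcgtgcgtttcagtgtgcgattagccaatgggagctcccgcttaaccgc

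Values below are log2(intensity + 50) after quantile normalization, a scale that understates changes of dim spots. RNA levels were compared between arrays within a spot only, and the signal of a spot is given only to say how bright it is, because the signal of a spot is a poor guide to the level of its gene: the mean signals of the first and last spot of the same gene correlated at 0.138 across 1481 genes, which share the arrays and are not independent. The differences between the groups at those first and last spots had the same sign in 51.0% of these genes. A sign shared by spots of the same gene is therefore described below and is not counted as agreement. Of 17 sympathoadrenal markers fixed for the labelled cell line, 10 had spots, 18 in all, of which 14 lay above the median signal of all spots. TH and NEFL were among the markers with no named spot. Because the signal of a spot is a poor guide to level, this count cannot check the line, whose identity is taken from the labels. GFP control replicates 2 and 1 stood apart from the other arrays, being the highest or the lowest of the 6 at 59% and 47.8% of all spots. On the other arrays that share ran from 17% to 27.7%. Median deposited intensity ran from 517 to 681 on the DN-TRF2 arrays and from 480 to 712 on the GFP control arrays.

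No licensing spot passed limma's test over all spots. The count was 0 of 15, against 0% of all 9169 spots, and limma's adjusted p was 0.999 at each of the 15. At an unadjusted p under 0.05 there were 2 of 15, MCM7 spot 5995 and GMNN spot 7066, against 3.41% of all spots. Both belong to the genes whose lower means led to the choice of the set, so this count cannot stand as support for it. Most spots of the set lay lower in DN-TRF2 cells, those of MCM7 and GMNN among them. The mean was lower at 12 of 15, against 52.7% of all spots, and the median difference was -0.14, beside -0.011 over all spots tested (log2, DN-TRF2 minus GFP control). Spots of 1 gene share their target and the members share their arrays, so the 12 are not independent. In RNA from whole cultures, fewer cycling cells and less RNA of a gene per cell cannot be told apart.

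**Figure D1:**
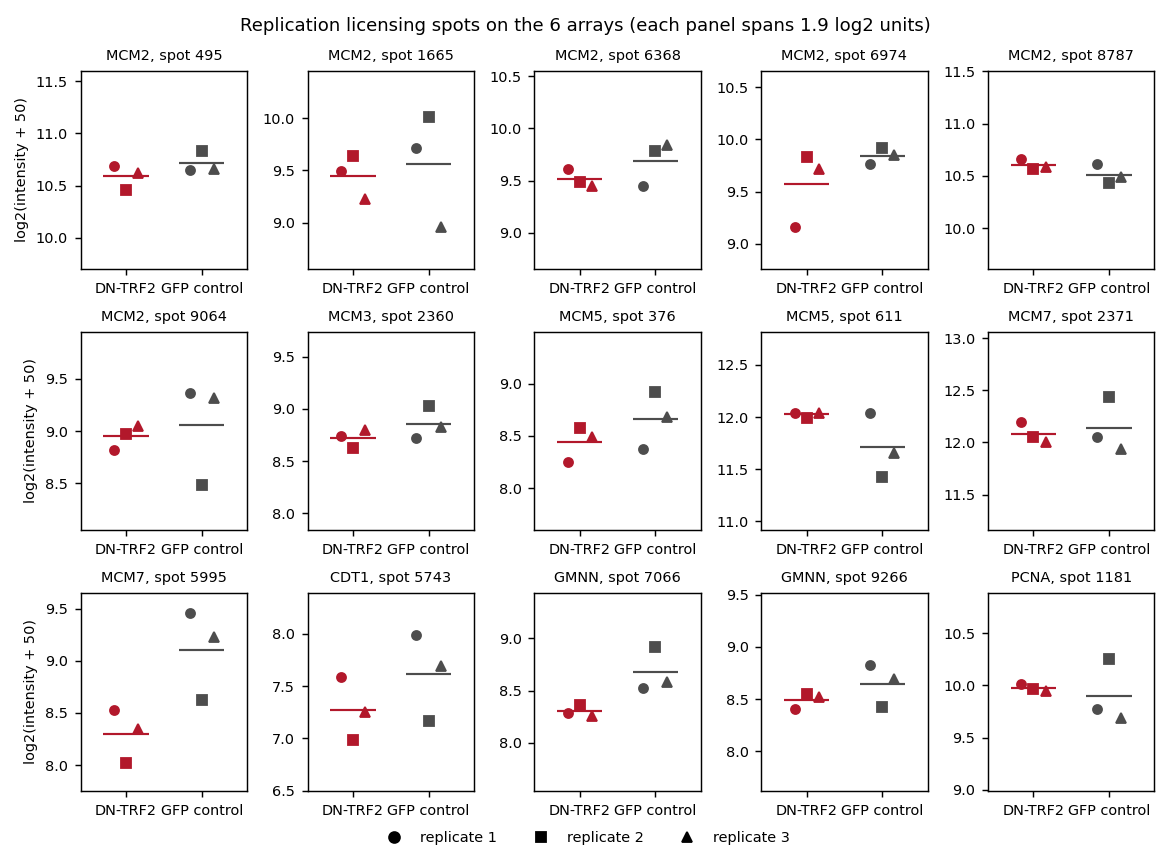
Normalized log2(intensity + 50) of each licensing spot (vertical axis, 1.9 log2 units in every panel) on the 3 DN-TRF2 arrays (red, left) and the 3 GFP control arrays (grey, right), with marker shapes for replicate number and a line at the group mean. MCM7 spot 5995 and GMNN spot 7066 are the 2 panels in which all DN-TRF2 points lie below all GFP control points.

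MCM7, the helicase subunit gene on chromosome 7 (100092728 to 100101397, GRCh38.p14), had the lowest value of the set at 1 of its 2 spots and no such difference at the other. At spot 5995 the level was 8.53, 8.02 and 8.35 on DN-TRF2 replicates 1, 2 and 3, against 9.46, 8.63 and 9.23 on GFP control replicates 1, 2 and 3. The deposited intensities there were 289, 215 and 328 in DN-TRF2 cells, against 542, 302 and 677 in GFP control cells. On the normalized scale all DN-TRF2 arrays lay below all GFP control arrays, although DN-TRF2 replicate 1 and GFP control replicate 2 were only a little apart. In the deposited intensities DN-TRF2 replicate 3 lay above GFP control replicate 2, so the separation there holds after normalization only. The difference was -0.81 ± 0.23 (SE, n = 3 arrays per group), a ratio of 0.572 on the offset scale, and the rank of the spot was 4 from the lowest among the 9169.

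The other MCM7 spot differed little between the groups. At spot 2371 the level was 12.19, 12.05 and 12.00 on the DN-TRF2 arrays, against 12.05, 12.43 and 11.94 on the GFP control arrays, and the groups overlapped. Its difference was -0.057 ± 0.17, and it turned to 0.093 without GFP control replicate 2. The spots differ by 3.41 in mean log2 signal, spot 2371 being at percentile 95.3 of all spots and spot 5995 at percentile 36.9. The gap between the spots was 3.66, 4.03 and 3.66 on the DN-TRF2 arrays and 2.59, 3.81 and 2.71 on the GFP control arrays, so that GFP control replicate 2 lay within the DN-TRF2 range. Which spot better reports MCM7 RNA was not tested.

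The remaining helicase subunits showed small differences of both signs. MCM2, on chromosome 3 (127598411 to 127622436), had a lower mean at 5 of 6 spots, between -0.27 ± 0.19 at spot 6974 and 0.093 ± 0.14 at spot 8787, with a median of -0.12. At spot 6974 the level was 9.16, 9.83 and 9.72 on the DN-TRF2 arrays, against 9.77, 9.91 and 9.85 on the GFP control arrays. There DN-TRF2 replicate 1 was alone in being low, and without it the difference came to -0.068. Spot 8787, the MCM2 spot with a higher mean, had 10.66, 10.57 and 10.58 in DN-TRF2 cells, against 10.62, 10.43 and 10.49 in GFP control cells. The groups overlapped at all 6 MCM2 spots. At 2 of them, spots 1665 and 9064, the sign depended on single control arrays: spot 1665 had -0.11 ± 0.25 with all arrays, 0.12 without GFP control replicate 2 and -0.41 without GFP control replicate 3, and spot 9064 had -0.11 ± 0.23 with all arrays, -0.39 without GFP control replicate 2 and 0.051 without GFP control replicate 1.

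MCM3, on chromosome 6 (52264015 to 52284742), had 8.74, 8.63 and 8.80 on the DN-TRF2 arrays, against 8.72, 9.03 and 8.83 on the GFP control arrays, and its difference was -0.14 ± 0.15. The groups overlapped, with GFP control replicate 2 the highest of the 6 arrays, and without that array the difference was -0.052. The spots of MCM5, on chromosome 22 (35400140 to 35455031), disagreed in sign. Spot 376 had 8.25, 8.58 and 8.49 in DN-TRF2 cells, against 8.37, 8.92 and 8.68 in GFP control cells, a difference of -0.22 ± 0.18. Spot 611 had 12.04, 11.99 and 12.04 on the DN-TRF2 arrays, against 12.04, 11.43 and 11.66 on the GFP control arrays, a difference of 0.32 ± 0.17 and the highest among the licensing spots. The lower value stood at the dimmer spot, as for MCM7, and the MCM5 spots differed by 3.32 in mean log2 signal. The groups overlapped at both spots, GFP control replicate 1 lying within the DN-TRF2 range at each. Without GFP control replicate 2 the differences shrank to -0.088 at spot 376 and 0.18 at spot 611, and without GFP control replicate 1 they were -0.37 and 0.46.

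CDT1, which loads the helicase, had the dimmest of the 15 spots, at percentile 14.2 of signal. It lies on chromosome 16 (88803789 to 88809258). Its level was 7.58, 6.98 and 7.26 on the DN-TRF2 arrays, against 7.99, 7.17 and 7.70 on the GFP control arrays, with a difference of -0.34 ± 0.23. The groups overlapped, since replicate 2 was the lowest array of each group. At each replicate number the DN-TRF2 array was below its control, by differences of -0.41, -0.18 and -0.44. Without GFP control replicate 1 the difference was -0.16 and without GFP control replicate 2 it was -0.56.

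GMNN, which encodes the CDT1 inhibitor geminin and lies on chromosome 6 (24774937 to 24786099), had a lower mean at both of its spots, whose signals were alike. At spot 7066 the level was 8.29, 8.37 and 8.26 on the DN-TRF2 arrays, against 8.53, 8.91 and 8.58 on the GFP control arrays. The groups did not overlap on this scale, and the difference was -0.37 ± 0.15, a ratio of 0.774 on the offset scale. The deposited intensities were 237, 287 and 305 in DN-TRF2 cells, against 267, 387 and 418 in GFP control cells, and there the groups did overlap, GFP control replicate 1 lying within the DN-TRF2 range. At spot 9266 the level was 8.41, 8.55 and 8.52 on the DN-TRF2 arrays, against 8.82, 8.43 and 8.69 on the GFP control arrays. Here GFP control replicate 2 lay among the DN-TRF2 arrays, and the difference was -0.16 ± 0.15. Leaving out 1 array at a time gave -0.44 to -0.25 at spot 7066 and -0.27 to -0.069 at spot 9266.

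PCNA, the sliding clamp gene on chromosome 20 (5114953 to 5126622), was steady on the DN-TRF2 arrays. It had 10.01, 9.97 and 9.95 there, against 9.77, 10.25 and 9.68 on the GFP control arrays, and the difference was 0.074 ± 0.17. All DN-TRF2 values lay within the GFP control range. The sign turned to -0.034 without GFP control replicate 3, and the difference was 0.25 without GFP control replicate 2.

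**Figure D2:**
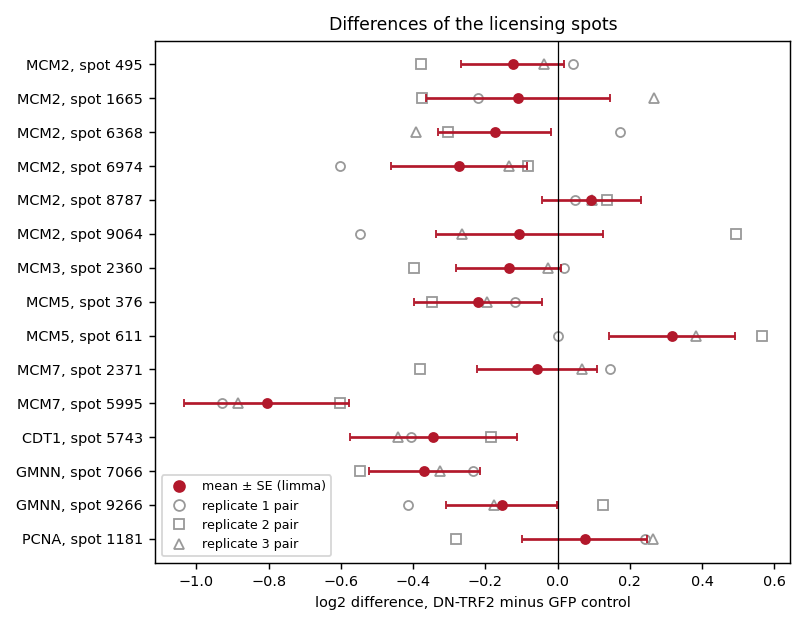
Log2 difference of DN-TRF2 minus GFP control (horizontal axis) at each licensing spot, as the mean with its standard error from limma (red) and as the difference at each replicate number (grey, shape by number). MCM7 spot 5995 lies at -0.81 and its 3 pairs between -0.93 and -0.60, whereas MCM7 spot 2371 and PCNA have pairs on both sides of 0.

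Paired by replicate number, 5 of the 15 spots were lower in DN-TRF2 at all 3 numbers, against 14.7% of all spots. They were MCM7 spot 5995, with differences of -0.93, -0.60 and -0.88 at numbers 1, 2 and 3, GMNN spot 7066 with -0.24, -0.55 and -0.33, CDT1, MCM5 spot 376 with -0.12, -0.35 and -0.20, and MCM2 spot 6974 with -0.60, -0.083 and -0.13. MCM7 and GMNN, chosen by their lower means, are among these genes, so this count cannot stand as support for the set. Separation of the groups was rarer, with 2 of 15 spots lower without overlap, against 4.43% of all spots, and 0 of 15 higher without overlap, against 4.28%. Those 2 were MCM7 spot 5995 and GMNN spot 7066, of the genes chosen by their lower means, so this count cannot stand as support either. With the replicate number as a block in limma, 3 of 15 had an unadjusted p under 0.05, against 5.75% of all spots, the added one being CDT1. The others were again MCM7 spot 5995 and GMNN spot 7066, so the same limit holds for this count. None passed the adjusted threshold in that fit, against 0% of all spots, and the smallest adjusted p among the 15 was 0.407, at MCM7 spot 5995.

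The control arrays set much of the spread. The SD over arrays was larger among GFP controls at 13 of the 15 spots, against 78% of all spots, with a median SD of 0.099 in DN-TRF2 cells and 0.26 in GFP control cells. GFP control replicate 2 was the highest of the 6 arrays at 8 of the 15 spots and the lowest at 3. The median deviation of the 15 spots from their own means was -0.014, -0.027 and -0.051 on the DN-TRF2 arrays and 0.057, 0.19 and 0.093 on the GFP control arrays. The order of arrays within a group depended on the summary: the mean level of the 15 spots was 9.50, 9.47 and 9.49 on the DN-TRF2 arrays and 9.69, 9.64 and 9.61 on the GFP control arrays. The part of that array in the median is measured by leaving it out, which gave a median difference of -0.088 with 10 of 15 spots lower.

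By distance over the 6 arrays between centred values, the named spots most like the mean MCM7 pattern belonged to BCKDK, a kinase of branched-chain amino acid breakdown, WDR4, a partner in tRNA methylation, and PYCR1, an enzyme of proline synthesis. Their root-mean-square distances were 0.042, 0.043 and 0.054 (log2) among 8436 named spots of other genes, whose median distance was 0.307. The spots of MCM7 themselves each lay at 0.277 from their mean, and the nearest other licensing spot, MCM2 spot 495, at 0.197. The likeness describes 6 arrays and is not a sign of shared function.

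Genes that act beside the licensing factors were described from 6 lists, 104 genes in all, of which 58 had spots. Of their 89 spots 45 had a lower mean, against 52.7% of all spots, with a median difference of -0.0026. By limma's adjusted threshold 0 of 89 passed, against 0% of all spots, and 4 of 89 had an unadjusted p under 0.05, against 3.41%. Without overlap of the groups 7 of 89 were lower and 7 of 89 higher, against 4.43% and 4.28% of all spots. In origin recognition and helicase loading 5 of 9 spots were lower, with a median of -0.073. ORC1, an origin recognition subunit, had -0.20 ± 0.14 at a spot close to the lower end of the scale, ORC4, another subunit, 0.22 ± 0.14, and HMGA1, a chromatin protein, 0.19 ± 0.15 at spot 4963, with 0.18 ± 0.18 and -0.15 ± 0.17 at its other spots.

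Helicase activation and fork genes had 5 of 12 spots lower and a median of 0.071. GINS4, a subunit of the GINS complex that joins MCM2-7 in the active helicase, had 0.27 ± 0.17. MCM10, an activation factor, had 0.40 ± 0.27 at spot 29 and -0.17 ± 0.22 at its other spot, and GINS2, also of GINS, had -0.39 ± 0.31 at spot 5271 and 0.22 ± 0.18 at its other spot. The spots of MCM10 and of GINS2 thus disagreed in sign, as those of MCM5 did. Among polymerase and clamp-loading genes 10 of 23 spots were lower, with a median of 0.045. RFC5, a subunit of the loader that places PCNA on DNA, had -0.37 ± 0.16 at spot 3318 and -0.023 ± 0.17 at its other spot. POLD2, of DNA polymerase delta, had 0.37 ± 0.17, and the flap nuclease gene FEN1 had -0.27 ± 0.14. The groups did not overlap at RFC5 spot 3318 and at the spots of POLD2 and FEN1, and they overlapped at the other RFC5 spot. In that list 2 of 23 spots were lower and 2 of 23 higher without overlap, against 4.43% and 4.28% of all spots.

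Ubiquitin ligase genes that control licensing had a lower mean at 11 of 12 spots, against 52.7% of all spots, with a median of -0.20. By limma none had an unadjusted p under 0.05, against 3.41% of all spots. SKP1, the adaptor of the SCF ligase, had -0.35 ± 0.18. SKP2, the SCF subunit that recognises phosphorylated CDT1, was lower at both of its spots, by -0.33 ± 0.17 and -0.31 ± 0.17, and 5 of the 12 spots belong to CDC20, an activator of the anaphase-promoting complex that marks geminin for destruction. The 1 spot with a higher mean was that of DDB1, a subunit of the CUL4 ligase, at 0.30 ± 0.17. The groups were apart at 1 of the 12, SKP2 spot 8082, against 4.43% of all spots lower without overlap.

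G1/S control genes had 7 of 20 spots lower and a median of 0.062, with members on both sides. The 3 spots of CCND1, which encodes cyclin D1, and both spots of CDC25A, a phosphatase gene, had lower means, between -0.21 and -0.081. CDKN1A, the p21 gene, whose product inhibits cyclin-dependent kinases and binds PCNA, had 0.61 ± 0.14 and 0.56 ± 0.14 at 2 spots and 0.17 ± 0.16 at its other spot, and E2F3, an activator of licensing gene transcription, had 0.29 ± 0.16. The groups did not overlap at those 2 CDKN1A spots and at E2F3. In that list 3 of 20 spots were higher and 0 of 20 lower without overlap, against 4.28% and 4.43% of all spots. Proliferation markers had 7 of 13 spots lower and a median of -0.0026. CDK1, the mitotic kinase, had -0.33 ± 0.14, RRM2, a ribonucleotide reductase subunit, had -0.27 ± 0.15, and UBE2C, a mitotic ubiquitin carrier, had 0.36 ± 0.17 at spot 7003 and -0.13 ± 0.16 at its other spot. Of the 13 spots 2, those of CDK1 and RRM2, were lower without overlap, against 4.43% of all spots, and 0 higher, against 4.28%. Each of the genes in these 6 lists had a limma adjusted p of 0.999 or above.

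**Figure D3:**
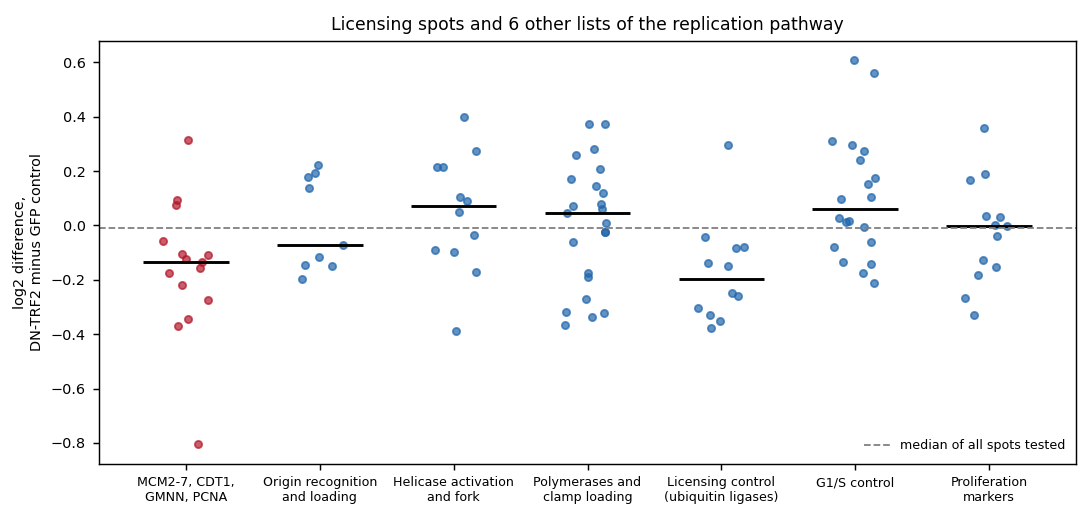
Log2 difference of DN-TRF2 minus GFP control (vertical axis) for each spot of the licensing set (red) and of 6 other lists (blue), with a black line at each median and a dashed line at the median of all spots tested. The licensing median of -0.14 and the ubiquitin ligase median of -0.20 lie below that line at -0.011, and the G1/S median of 0.062 above it.

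Markers of other cells were set beside these values. No spot of the 3 marker lists passed limma's adjusted threshold, against 0% of all spots, and limma's adjusted p was 0.999 or above at each. Of 10 stromal or substrate-adherent markers 7 had spots, 10 in all. In DN-TRF2 cells the mean was higher at 7 of these 10 spots, against 4341 of all 9169 spots, and the median difference was 0.32. The groups did not overlap at 4 of the 10, all higher in DN-TRF2 cells, against 4.28% of all spots. They were both spots of TIMP1, at 0.77 ± 0.18 and 0.59 ± 0.16, and both of S100A6, at 0.66 ± 0.13 and 0.52 ± 0.17. The same 4 had an unadjusted p under 0.05 by limma, against 3.41% of all spots. The mean was lower at the spots of VIM and FN1 and at 1 of the spots of CAV1. The mean level of the 10 spots ran from 8.97 to 9.08 on the DN-TRF2 arrays and from 8.58 to 8.86 on the GFP control arrays. The collagen genes COL1A1, COL1A2 and COL3A1 had no named spot. Of 8 blood cell markers HBB and CD14 had a spot, both higher, with mean levels of 7.21 to 7.28 in DN-TRF2 cells and 7.00 to 7.10 in GFP control cells. The HBB spot was close to the lower end of the scale, at percentile 3.02 of signal. All 8 liver and epithelial markers had spots, 16 in all, of which 6 were lower, and the groups overlapped: their mean level ran from 8.79 to 8.94 in DN-TRF2 cells and from 8.75 to 8.93 in GFP control cells. Of the 18 spots of the sympathoadrenal markers 6 were lower, with a median difference of 0.046, and none passed limma's adjusted threshold. By limma 3 of 18 had an unadjusted p under 0.05, against 3.41% of all spots. They were GATA3 spot 7851 (0.45 ± 0.15), GAP43 (0.46 ± 0.18) and CHGA spot 3195 (-0.53 ± 0.20). The other spots of GATA3 and CHGA had differences between 0.036 and 0.10. The part of any of these markers in the licensing values was not tested.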

How the data were processed

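The deposited table gives 1 linear intensity per spot and array as the authors deposited it; per the labels' protocols, RNA was labelled with 33P and hybridized in 1 channel. How images were read, corrected for background or scaled is not stated in the labels. The value 10 recurs as a stand-in for no signal: the tests omit 384 blank positions (each 25th spot) and 47 others that held 10 on all 6 arrays. Symbols were updated by gene ID to GRCh38.p14, where 8493 of 8517 annotated spots matched.

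Values were taken as log2(intensity + 50) and quantile-normalized between arrays. Each of 9169 spots was tested with limma 3.58.1 (R 4.3.3, lmFit and eBayes, two-sided, Benjamini-Hochberg over all spots, threshold 0.05). The code was run on simulated arrays, where it recovered 93% of 100 spots changed by 1 log2 unit. Those arrays were independent, with the same SD in both groups. The real arrays have larger SDs among GFP controls and correlated replicate numbers, so that run does not measure the power of the test here. Deviations from the group means of arrays that share a number had correlations of 0.390, 0.296 and 0.246 for numbers 1, 2 and 3, on which basis numbers were taken as pairs. The fit behind all differences, SEs and counts has no block, and the fit with the number as a block is named where used. The printed SEs thus leave out the pairing. With the block the SE was 0.15 at MCM7 spot 5995 and at CDT1, against 0.23 at each without it. At some spots it was larger with the block, as at MCM2 spot 495, with 0.155 against 0.143. The number of arrays limits the precision.

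All spots of the members are given, with up to 3 spots of smallest p per pathway list and the 3 spots nearest the MCM7 pattern. Other spots of the genes so named, those of CCND1, CDC25A, DDB1 and CDC20, and the marker spots are named outside that rule. Members and lists were chosen with earlier results of these data known.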

Additional observations from a re-analysis of the deposited data

How the results depend on the processing

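The comparison was repeated under 15 alternatives: the replicate block, offsets of 1, 10 and 100, median scaling, no normalization, no filter on blanks, removal of the dimmest quartile, array weights, and each array left out. The count of licensing spots past limma's adjusted threshold was 0 under each, as was that of the pathway spots. The count over all spots was 0 except with the offset of 1, where it was 1, a BOP1 spot with an adjusted p of 0.0340 and a difference of 2.73 (0.24 with the offset of 50), chosen for mention after its value was seen. The replicate block changed no call; over all spots it moved the number at an unadjusted p under 0.05 to 527, against 313 without it. The licensing median of -0.14 was -0.087 with no normalization, where the median of all spots was 0.021, and ran from -0.16 to -0.088 with 1 array left out. Of the 15 spots 9 had a lower and 2 a higher mean under every setting that measured them. CDT1 was not measured without the dimmest quartile. The sign of the other 4 (MCM2 spots 1665 and 9064, MCM7 spot 2371 and PCNA) changed with the setting. MCM7 spot 5995 ran from -1.03 to -0.63 over the settings. Spots near the stand-in have no measurable background, and signal over background cannot be given.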
